A study of Homo sapiens with 4 samples.

Results

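The brain-enriched microRNA miR-128 was followed through its 3 mature products, hsa-miR-128-3p, hsa-miR-128-1-5p and hsa-miR-128-2-5p, which were taken by name from a table of miRNA counts. They are 3 of the 2656 mature miRNAs listed, and all 3 were among the 863 that passed the filter on low counts. The cells were cortical interneurons derived from H1, a single line of human embryonic stem cells (hESCs), and small RNA-seq was used to ask which miRNAs change after ethanol exposure. The exposed cultures (n = 2) were kept in neuronal maturation medium with around 50 to 100 mM ethanol for 7 days and were collected after a further day without ethanol, and the unexposed cultures (n = 2) were kept for 7 days without it. Treatments were done in duplicate, and the sources used here do not say whether the duplicates came from separate differentiations, so every P value below measures the spread between these 4 cultures of 1 line. RNA was taken from whole cultures, so fewer cells that express a miRNA and less of it per cell cannot be told apart.

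A miRNA gene is transcribed into a hairpin, from which a short duplex of a 5p and a 3p arm is cut. The arm that is kept by an Argonaute protein, the guide, pairs with messenger RNAs mainly through its seed, and the other arm, the passenger, is mostly degraded. miR-128-3p is the guide of both human miR-128 hairpins, is known as one of the miRNAs typical of brain tissue and neurons, and has been studied as a regulator of neuronal excitability and of neuronal differentiation.

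The mature sequences show why the products can be counted apart at one end of the hairpin only. They are printed 5′ to 3′ from RefSeq, matched by name, with the seed (bases 2 to 8) in capitals.
hsa-miR-128-3p: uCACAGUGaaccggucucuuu
hsa-miR-128-1-5p: cGGGGCCGuagcacugucugaga
hsa-miR-128-2-5p: gGGGGCCGauacacuguacgaga
The 3p arm is the same in both hairpins, so its counts cannot be assigned to a gene. The 5p arms are each 23 bases long and are the same at 17 positions (73.9%). Counted from 1 at the 5′ end, with the base of miR-128-1-5p first, they differ at C1G, U9A, A10U, G11A, C18A and U19C. None of these positions lies in the seed, and in the RefSeq table the 2 arms are the only human mature miRNAs with the seed GGGGCCG. All of the first 5 bases of each 5p arm are G or C, against 2 of the first 5 in the 3p arm, which begins with U.

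The 2 hairpins come from different chromosomes. In the RefSeq sequences below the 5p arm and then the 3p arm are in capitals, to show the shared 3p arm and the differing 5p arms, loops and stems.
MIR128-1: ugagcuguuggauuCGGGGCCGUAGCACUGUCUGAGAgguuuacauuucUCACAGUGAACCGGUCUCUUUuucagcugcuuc
MIR128-2: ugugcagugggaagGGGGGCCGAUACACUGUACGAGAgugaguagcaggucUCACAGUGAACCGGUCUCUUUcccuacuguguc
MIR128-1 lies at chr2:135665397-135665478 on the plus strand of GRCh38.p14, inside R3HDM1, a gene named for its R3H domain. All 6 GENCODE 29 transcripts of R3HDM1 that span it have it in an intron, the shortest of which is 13938 bases long. MIR128-2 lies at chr3:35744476-35744559 on the plus strand, inside ARPP21, which encodes a phosphoprotein regulated by cyclic AMP in neurons. All 5 ARPP21 transcripts that span it have it in an intron, 510 bases from the upstream exon of an intron of 40891 bases. Both hairpins are on the same strand as their host gene. The nearest other miRNA gene is 807.6 kb from MIR128-1 and 2225 kb from MIR128-2, so neither belongs to a close cluster. The hairpins align with 63 identical columns of 85 (74.1%). Their predicted folding energies were -35.7 kcal/mol for MIR128-1 and -39.3 kcal/mol for MIR128-2, with 15 and 18 of the 21 bases of the 3p arm paired.

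The exposed libraries held 22223060 and 24858230 counts and the unexposed libraries 13941795 and 12100425, so depth and exposure cannot be told apart. Levels are given as counts in each 1000000 of a library (CPM) after TMM scaling, which corrects for differences in library composition, and a count is a number of reads, not of molecules. The 17 other brain and neuron miRNAs on a list drawn from general knowledge took between 35.6% and 44.0% of each library. Most of that came from hsa-miR-9-5p and hsa-miR-7-5p, at means of 190800 and 136900 CPM after scaling. The sums of the lists that follow are CPM before scaling. The 8 miRNAs typical of pluripotent stem cells summed to 3.06 to 3.26 CPM in exposed libraries and to 3.23 to 4.46 CPM in unexposed ones, with 2 of them at 0 in all 4. The 4 of blood and microglia summed to at most 0.684 CPM, with 3 of them at or under 3 counts in every library and 2 at 0. The 3 of oligodendrocytes summed to 85.9 to 93.9 CPM in exposed and 64.3 to 123 CPM in unexposed cells, the 5 of epithelium to 92.0 to 110 and 107 to 138 CPM, and the 6 of mesenchymal or vascular cells to 978 to 1270 and 838 to 969 CPM. Most of this last sum was 1 member, hsa-miR-126-3p, at a mean of 912.8 CPM, and hsa-miR-143-3p came next at 72.0 CPM. Both are named for their levels. Before scaling, the mesenchymal or vascular list and the blood list were higher in both exposed libraries than in either unexposed one, as miR-128-2-5p was. For the mesenchymal or vascular list the gap was small, at 978 against 969 CPM. The blood list was near the floor, with 0 of its 4 past the filter on low counts. It summed to 0.585 to 0.684 CPM in exposed and 0.165 to 0.43 CPM in unexposed libraries. Over the 4 libraries 3 counts would be 0.121 to 0.248 CPM. The sums were not compared after scaling. The part of these lists in the miR-128 values was not tested.

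miR-128-3p was one of the most abundant miRNAs of these cells. It had 1228945 and 1171813 counts in exposed replicates 1 and 2, and 346196 and 628038 in unexposed replicates 1 and 2. That was 5.53% and 4.71% of the exposed libraries, and 2.483% and 5.19% of the unexposed ones, with an exact 95% interval of 2.475% to 2.491% for the lowest of these shares. It was at rank 4, 5, 11 and 3 among all miRNAs in the same order. After scaling, exposed cultures had 48736 and 48142 CPM of it and unexposed cultures 29351 and 48812 CPM. Unexposed replicate 1 was low, the other 3 libraries were almost level, and the groups overlapped, since unexposed replicate 2 was the highest of the 4. The mean was 48439 ± 419.8 CPM in exposed and 39081 ± 13760 CPM in unexposed cells (SD, n = 2 each). The fold change was 1.24 (95% interval 0.752 to 2.04), a log2 fold change of 0.31 (SE 0.31), with an edgeR P of 0.35, an adjusted P of 0.937 and a two-sided exact permutation p of 1. The difference was not larger than the spread between the unexposed cultures, and with 2 cultures against 2 the smallest p the permutation test allows is 0.333. The estimate rested on which unexposed culture was used. The log2 fold change was -0.02 without replicate 1 of the unexposed cells and 0.69 without their replicate 2. Each of these fits leaves a single unexposed library, which is assumed to vary like the exposed ones.

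The unexposed cultures differed more in miR-128-3p than the exposed cultures did. They differed 1.66-fold, 0.73 on the log2 scale, against a median replicate gap of 0.40 among the 72 miRNAs with at least 1000 CPM. A larger gap between the same cultures was found for 7 of the 72, and for 199 of all 863 miRNAs tested. The exposed cultures differed by 0.02 on the log2 scale, against a median of 0.18. Unexposed replicate 1 lay 0.73 below the mean of the other 3 libraries on the log2 scale. In that library 10.8% of the 863 miRNAs tested and 2 of the 72 abundant ones lay further below. The 2 abundant ones were hsa-miR-92b-3p and hsa-miR-125b-1-3p. The first was at 10530 CPM in that library and 18890 to 22860 CPM in the others, and the second at 1116 CPM against 1632 to 2237 CPM. Both are named because of these values. In the other 3 libraries miR-128-3p varied 1.014-fold after scaling, with an SD of 0.01 on the log2 scale, and 3 of the 863 miRNAs tested had a smaller one. Unexposed replicate 1 was set aside because miR-128-3p was low in it, so this place among the 863 partly follows from that choice. Before scaling the same 3 libraries varied 1.17-fold, from 47140 to 55300 CPM, so their near equality rests on the scaling factors.

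**Figure D1:**
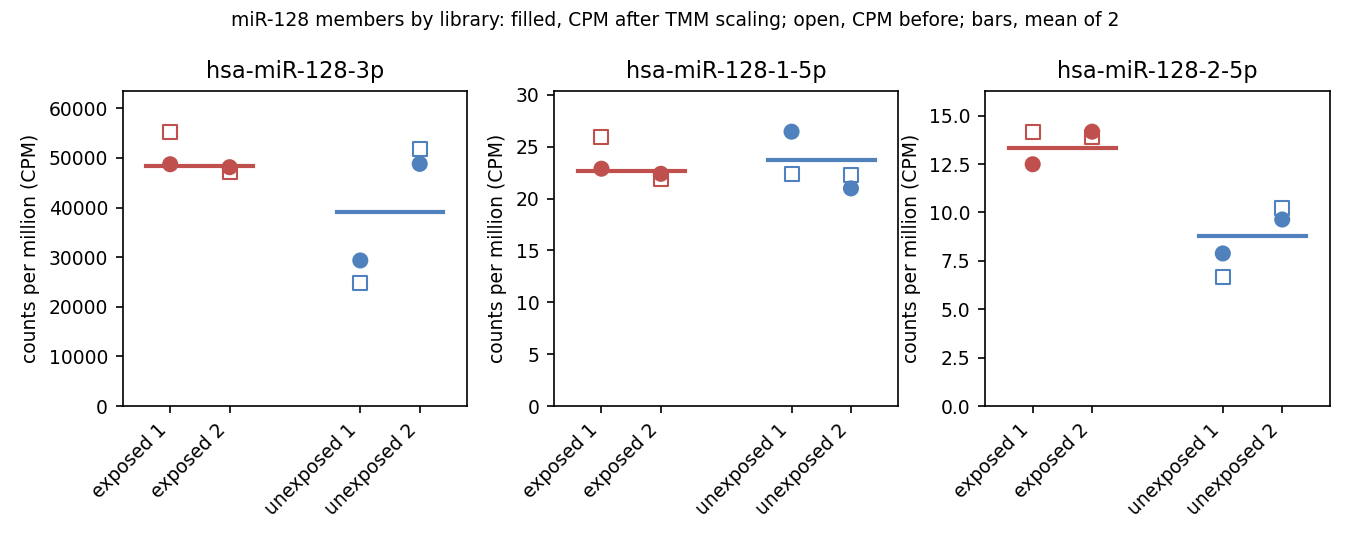
Level of each miR-128 product in counts for each 1000000 of the library (CPM, linear axes from 0) in the 2 exposed (red) and 2 unexposed (blue) cultures, with filled circles after TMM scaling, open squares before scaling and bars at the mean of 2 scaled values. For miR-128-3p unexposed replicate 1 lies at 29351 CPM and the other 3 between 48142 and 48812 CPM, and for miR-128-2-5p both exposed cultures lie above both unexposed ones.

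The 5p arms were found at a small fraction of the level of the 3p arm. miR-128-1-5p, the passenger of the R3HDM1 hairpin, had 577 and 545 counts in exposed and 312 and 270 in unexposed cells, a level of 22.9 and 22.4 CPM against 26.5 and 21.0 CPM after scaling. The unexposed cultures held both the highest and the lowest value, so the groups overlapped. Means were 22.6 ± 0.348 and 23.7 ± 3.87 CPM (SD, n = 2 each). The log2 fold change was -0.07 (SE 0.26, 95% interval of the fold 0.625 to 1.46), with an edgeR P of 0.807, an adjusted P of 0.983 and a two-sided exact permutation p of 1. Before scaling the same arm had 25.96 and 21.9 CPM against 22.4 and 22.3 CPM, and the exact 95% counting intervals of the exposed libraries, 23.89 to 28.17 and 20.12 to 23.84 CPM, each overlapped those of both unexposed libraries. The interval allows for changes in either direction and does not show that the arm was equal in the 2 groups.

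miR-128-2-5p, the passenger of the ARPP21 hairpin, had 315 and 345 counts in exposed and 93 and 124 in unexposed cells. Its scaled level was 12.5 and 14.2 CPM in the exposed against 7.88 and 9.64 CPM in the unexposed cultures. Both exposed values lay above both unexposed values, and the same held before scaling, at 14.2 and 13.9 against 6.67 and 10.2 CPM. Of the 3 products this was the 1 whose groups did not overlap, and 288 of the 863 miRNAs tested (33.4%) had groups that did not overlap, so 1 of 3 is about the background share. Means were 13.3 ± 1.19 and 8.76 ± 1.24 CPM (SD, n = 2 each), a fold change of 1.52 (95% interval 0.964 to 2.40) and a log2 fold change of 0.60 (SE 0.28). The edgeR P was 0.0665, the adjusted P 0.922 and the two-sided exact permutation p 0.333, the smallest possible here. The P value ranked number 51 of 863. The log2 fold change was 0.46 without unexposed replicate 1 and 0.72 without unexposed replicate 2. Each of these fits leaves a single unexposed library, which is assumed to vary like the exposed ones.

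None of the 3 products had an unadjusted edgeR P under 0.05, against 39 of the 863 miRNAs tested (4.52%), and none had an adjusted P under 0.05, as was the case for all 863 (0.0%). limma-voom and DESeq2 also gave 0 adjusted calls over all miRNAs, with 31 and 28 unadjusted ones, and edgeR without the filter on low counts gave 6 adjusted calls among 1825 miRNAs, none of them a miR-128 product. Among all miRNAs tested the log2 fold change had a median of -0.01 and quartiles of -0.24 and 0.25. That of miR-128-2-5p was exceeded by 6.60% of them and that of miR-128-3p by 20.3%. miR-128-1-5p lay inside the quartiles.

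**Figure D2:**
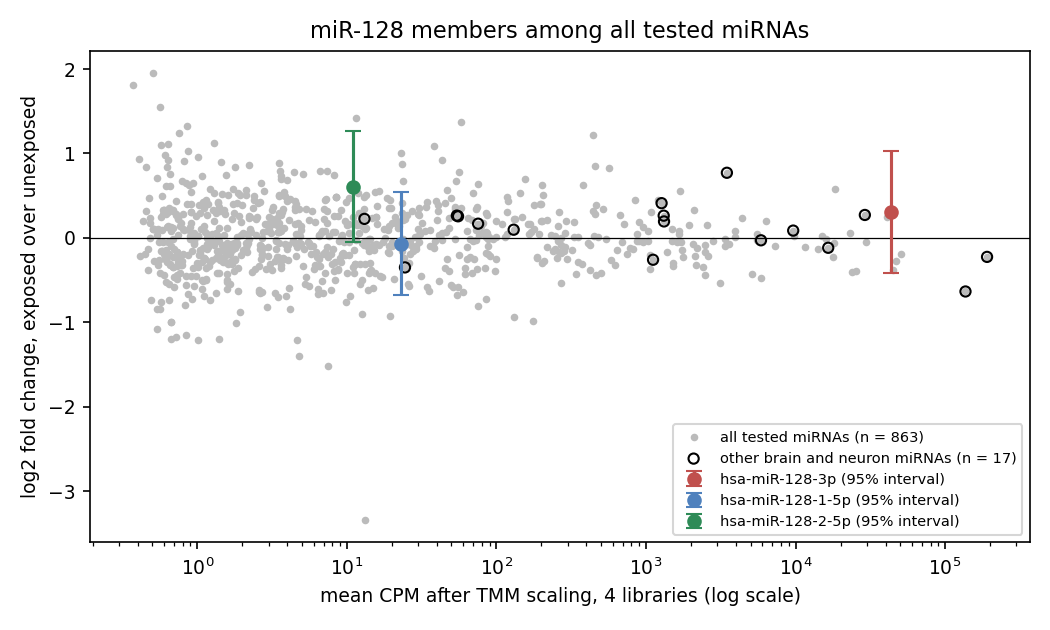
Log2 fold change of exposed over unexposed cultures against the mean scaled CPM of the 4 libraries (log axis) for 863 miRNAs (grey), 17 other brain and neuron miRNAs (open circles) and the 3 miR-128 products (coloured, bars are 95% intervals). The intervals of all 3 products cross 0, with estimates of 0.31 for miR-128-3p at 43760 CPM, -0.07 for miR-128-1-5p at 23.2 CPM and 0.60 for miR-128-2-5p at 11.0 CPM.

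In the order of levels miR-128-3p came at rank 6, miR-128-1-5p came at rank 286 and miR-128-2-5p at rank 366 by mean CPM. Next above miR-128-3p was hsa-let-7g-5p, a member of the let-7 family known for its rise during differentiation, at 30890 to 63490 CPM, and next below was hsa-miR-99a-5p at 35830 to 51240 CPM. The neighbours of miR-128-1-5p were hsa-miR-885-3p at 20.4 to 28.3 CPM and hsa-miR-5100 at 13.8 to 41.8 CPM. Those of miR-128-2-5p were hsa-miR-3065-5p at 8.64 to 16.6 CPM and hsa-miR-548ah-5p at 8.45 to 13.8 CPM. The range of each neighbour over the 4 libraries overlapped that of the miR-128 product beside it, so these neighbours in the order are not told apart by their spread. The 2 5p arms themselves did not overlap, since the lowest value of miR-128-1-5p was 21.0 CPM and the highest of miR-128-2-5p was 14.2 CPM.

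The 5p arms, whose differing bases tell the genes apart, gave the share of each gene among the 5p counts. Whether both passengers are kept and captured equally was not tested, so this is a share of 5p reads and not of hairpins. miR-128-1-5p made up 64.69% of the 892 5p counts of exposed replicate 1 (exact 95% interval 61.45 to 67.83) and 61.24% of the 890 of exposed replicate 2 (57.95 to 64.45). It made up 77.04% of the 405 of unexposed replicate 1 (72.63 to 81.05) and 68.53% of the 394 of unexposed replicate 2 (63.69 to 73.09). MIR128-1 thus gave most 5p counts in every culture, 66.0% of the 2581 over all 4, and its share was lower in both exposed cultures than in either unexposed one. The mean share was 62.96 ± 2.44% in exposed and 72.78 ± 6.02% in unexposed cells (SD, n = 2 each), a difference of -9.82 percentage points. The two-sided exact permutation p was 0.333, the smallest possible, so this design cannot place the difference past a threshold. The counting interval of unexposed replicate 2 overlapped those of both exposed replicates, and that of unexposed replicate 1 overlapped neither. As a ratio, there were 1.83 and 1.58 counts of miR-128-1-5p for each of miR-128-2-5p in exposed cells, and 3.35 and 2.18 in unexposed cells. A share of this kind is set within a library and does not depend on the scaling, but the intervals cover counting error only.

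**Figure D3:**
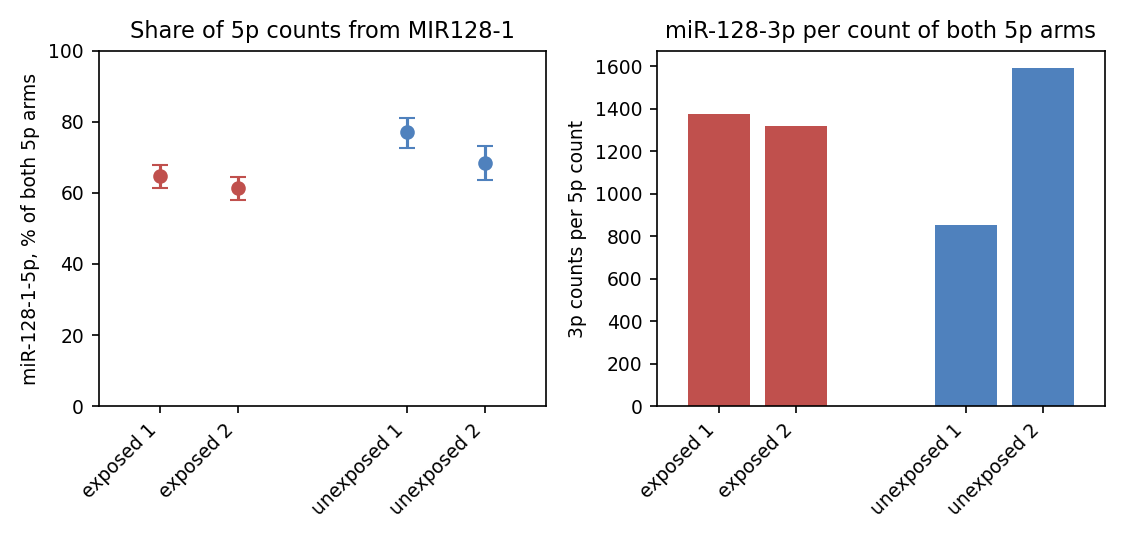
Left, share of the 5p counts that carry the MIR128-1 sequence, in percent of both 5p arms, with exact 95% intervals for counting error. Right, number of miR-128-3p counts for each 5p count of either gene in the 2 exposed (red) and 2 unexposed (blue) cultures, where the share separates the groups (61.24% and 64.69% against 68.53% and 77.04%) and the ratio does not (1317 and 1378 against 855 and 1594).

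Other miRNAs can be read in the same way when one arm is listed apart for the genes numbered 1 and 2. A gene with any other number has no part in these shares. Of the 13 such pairs with at least 100 counts, miR-128 had the second largest difference between the groups, after miR-125b, whose first gene gave 69.57% and 67.05% of counts in exposed and 53.27% and 63.03% in unexposed cells. The first gene is the one numbered 1, and its share did not overlap between the groups in 6 of the 13 pairs, miR-128 and miR-125b among them. The median size of the difference was 1.29 points. The order is by percentage points, and a share close to an end of the scale, as that of miR-7, leaves less room for a difference. In 3 of the 13 pairs, including miR-128, the share of the first gene was lower in exposed cells. Of these pairs 4 belong to miRNAs on the brain and neuron list, miR-125b among them. For the other 3, the share of the first gene was 93.29% and 95.13% against 95.04% and 90.8% for miR-7. It was 16.92% and 15.82% against 14.24% and 16.72% for miR-129, and 21.52% and 22.38% against 22.15% and 20.44% for miR-138. The groups overlapped in these 3 pairs and not in miR-125b. The pairs differ in depth, from 321 counts in all for miR-29b to 204495 for miR-125b, and miR-29b is named for its depth.

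**Figure D4:**
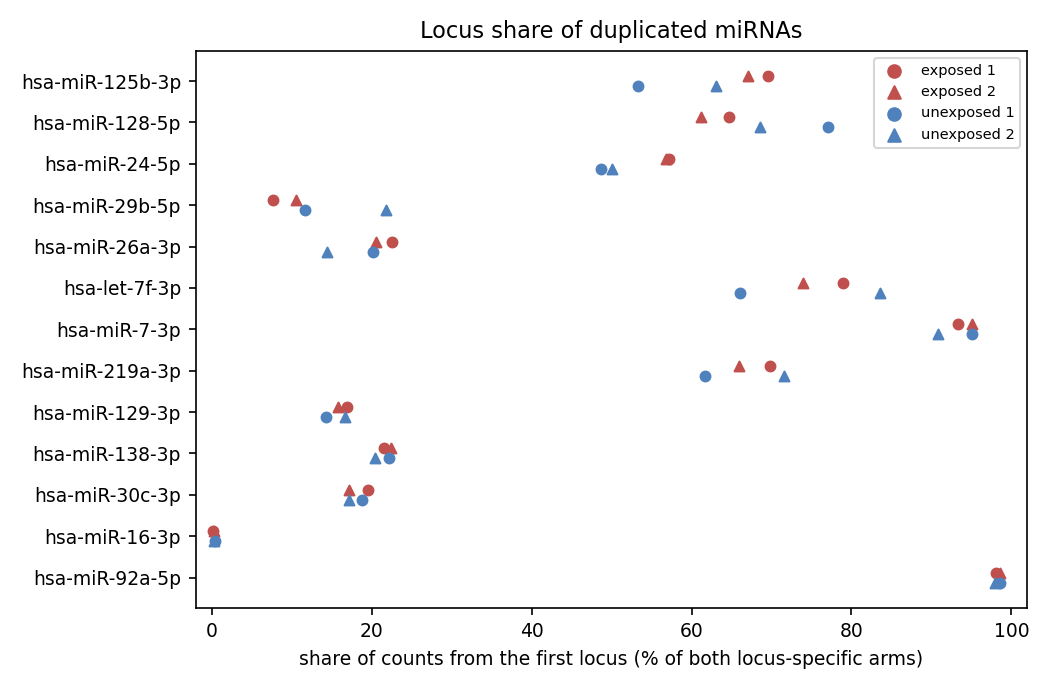
Share of counts from the gene numbered 1, in percent of both locus-specific arms, for 13 miRNAs with an arm listed apart for the genes numbered 1 and 2. Exposed cultures are red and unexposed ones blue, with circles for replicate 1 and triangles for replicate 2. The miR-128 pair has its exposed cultures at 61.24% and 64.69%, to the left of the unexposed ones at 68.53% and 77.04%, and the miR-125b pair shows the opposite order.

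Nearly all miR-128 counts belonged to the 3p arm. The 2 5p arms together were 0.0725% and 0.0759% of the miR-128 counts in exposed and 0.117% and 0.0627% in unexposed cells. There were 1378 and 1317 counts of miR-128-3p for each 5p count in exposed cells, and 855 and 1594 in unexposed cells. The unexposed cultures held the lowest and the highest ratio, so the groups overlapped. On the log2 scale the 5p over 3p ratio was -10.40 ± 0.05 in exposed and -10.19 ± 0.64 in unexposed cells (SD, n = 2 each), a difference of -0.21 with a two-sided exact permutation p of 1. Unexposed replicate 1 decided its sign, since the difference was 0.24 without that library. Against miR-128-1-5p alone the difference was -0.41 (exact permutation p = 1), and against miR-128-2-5p alone it was 0.25 (exact permutation p = 0.667). The 3p counts in these last values come from both genes.

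The arms of miR-128 were more unequal than those of most abundant precursors. Over the 4 libraries the 3p arm had 1938 times the level of miR-128-1-5p and 3984 times that of miR-128-2-5p. The 3p counts come from both genes, so each ratio overstates that of a single hairpin. Against both 5p arms together there were 1308 counts of the 3p arm for each 5p count. The median over the 72 precursors whose higher arm had at least 1000 CPM was 224, and 20 and 15 of the 72 were more unequal than MIR128-1 and MIR128-2. The higher arm began with U, as that of miR-128 does, in 47 of the 72 (65.3%), and the lower arm began with U in 15.3%. A lower arm with only G and C in its first 5 bases was found in 3 of the 72, with MIR128-1 and MIR128-2 as 2 of them. The higher arm had fewer G or C in its first 5 bases than the lower arm, as in miR-128, in 39 of the 72 (54.2%). Arms were compared as reads, and how evenly the library preparation captured them was not tested.

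miRNAs with the seed of miR-128-3p could pair with the same target sequence. Among the 2367 of the 2656 listed miRNAs that were matched by name to RefSeq, 2 others had exactly that seed. The miR-27 guides carry the same 7 bases shifted by 1 position, as the capitals show here.
hsa-miR-128-3p: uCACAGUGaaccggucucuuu
hsa-miR-216a-3p: uCACAGUGgucucugggauuau
hsa-miR-3681-3p: aCACAGUGcuucauccacuacu
hsa-miR-27a-3p: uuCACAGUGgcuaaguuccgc
hsa-miR-27b-3p: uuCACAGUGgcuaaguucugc
A site that pairs with bases 2 to 8 of miR-128-3p reads CACUGUG, and when an A follows, CACUGUGA, it also holds the site for the seed of miR-27, ACUGUGA. miR-128-3p was the most abundant of the group. hsa-miR-27b-3p, which is processed from a cluster with miR-23b and miR-24, was at 7654 and 6401 CPM in exposed and 6361 and 8624 CPM in unexposed cells. hsa-miR-27a-3p was at 352 and 236 against 201 and 365 CPM, and hsa-miR-216a-3p at 15.5 and 11.4 against 9.84 and 41.3 CPM. The groups overlapped for each of these 3 and none passed the edgeR test, with log2 fold changes of -0.09 (SE 0.26, P = 0.727), 0.06 (SE 0.33, P = 0.872) and -0.93 (SE 0.58, P = 0.147) and an exact permutation p of 1 for each. hsa-miR-3681-3p had 0 counts in all 4 libraries, where 3 counts would be 0.121 to 0.248 CPM. In miR-27b-3p, miR-27a-3p and miR-216a-3p, as in miR-128-3p, unexposed replicate 1 was the lowest library. For miR-27b-3p it was nearly level with exposed replicate 2, at 6361 against 6401 CPM. For miR-216a-3p unexposed replicate 2 lay far above the rest.

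Other brain and neuron miRNAs pointed in both directions. Of the 17 on the list, all of which were tested, 1 had an unadjusted P under 0.05 with a higher level in exposed cells, 0 with a lower level, and 0 had an adjusted P under 0.05, against 4.52% of all miRNAs with an unadjusted P under 0.05. The 1 was hsa-miR-124-3p, the miRNA best known for neuronal identity, at 5406 and 3362 CPM in exposed and 2948 and 2190 CPM in unexposed cells (log2 fold change 0.77, SE 0.30, edgeR P = 0.0316, adjusted P = 0.922, exact permutation p = 0.333). Its exposed values lay above its unexposed values, as for miR-128-2-5p and unlike for miR-128-3p. The median log2 fold change of the list was 0.17, with 11 positive and 6 negative, against -0.01 for all miRNAs tested, and 7 of the 17 had groups that did not overlap, against 33.4% of all miRNAs tested. In unexposed replicate 1, where miR-128-3p was low, 4 of the 17 were also lower than in each of the other 3 libraries, and the median deviation of the list in that library was 0.06 on the log2 scale. By mean level 2 of the 17, hsa-miR-9-5p and hsa-miR-7-5p, exceeded miR-128-3p. Both are named for their levels, 190800 and 136900 CPM.

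The miRNAs whose pattern over the 4 libraries was most like that of miR-128-3p were sought among the 162 others with a mean of at least 100 CPM, by the root mean square difference of mean-centred log2 CPM. hsa-let-7d-3p, the passenger of a let-7 hairpin, came first with 0.0578, at 515 and 533 CPM in exposed and 290.5 and 509 CPM in unexposed cells. hsa-miR-323a-3p came next with 0.130, at 159 and 125 against 85.7 and 156 CPM. hsa-miR-181a-2-3p followed with 0.132, at 2164 and 1909 against 1504 and 2146 CPM. In all 3, as in miR-128-3p, unexposed replicate 1 was the lowest library. The median over the candidates was 0.380 and the highest 0.753, and miR-27a-3p and miR-27b-3p came at places 24 and 33 with 0.243 and 0.257. With 4 libraries this likeness rests largely on 1 of them and describes these cultures only.

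Across scalings, filters, blocks and tools, all refits of the same 4 libraries, the ranges of the 3 products did not overlap each other. A range over refits does not measure the spread between cultures, so it cannot tell the products apart. In the main fit the intervals of the log2 fold change overlapped. They were -0.41 to 1.03 for miR-128-3p, -0.68 to 0.55 for miR-128-1-5p and -0.05 to 1.26 for miR-128-2-5p. With a library left out in turn, the range of miR-128-3p overlapped those of both 5p arms, which did not overlap each other. Over 10 other settings with all 4 libraries, the log2 fold change of miR-128-3p lay between 0.20 and 0.42 and that of miR-128-2-5p between 0.50 and 0.73. That of miR-128-1-5p lay between -0.17 and 0.10, and it was positive in the setting that used library size only. No unadjusted P of any of the 3 was under 0.05 in these settings. The lowest, for miR-128-2-5p, was an edgeR P of 0.06 with the crossed replicate block. That setting, added after the data were seen, joins exposed replicate 1 with unexposed replicate 2, which the labels do not call for. Among the planned settings the lowest was 0.0631, for the same product in limma-voom.

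**Figure D5:**
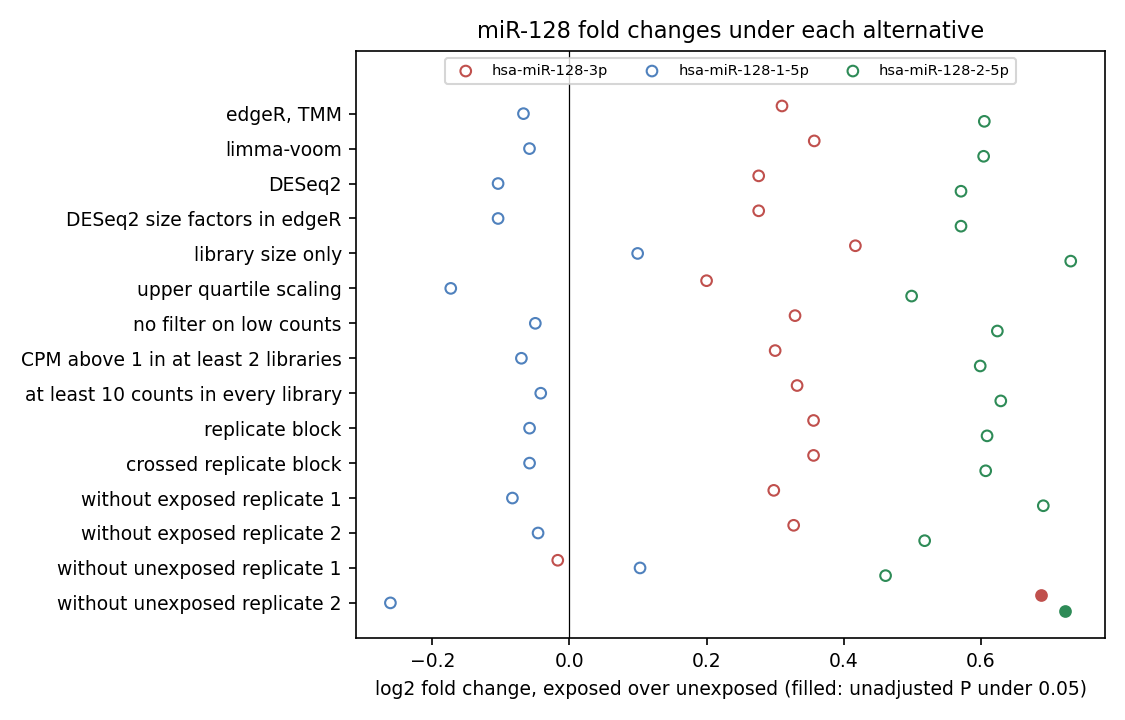
Log2 fold change of exposed over unexposed cultures for miR-128-3p (red), miR-128-1-5p (blue) and miR-128-2-5p (green) under each tool, scaling, filter, block and left-out library, with filled points for an unadjusted P under 0.05. A fit without an unexposed replicate assumes that the remaining unexposed library varies like the exposed ones. The estimates of miR-128-2-5p stay between 0.46 and 0.73, and those of miR-128-3p run from -0.02 without unexposed replicate 1 to 0.69 without unexposed replicate 2.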

How the data were processed

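Small RNA-seq libraries of hESC-derived cortical interneurons were made with the NEBNext small RNA kit, and the authors deposited 1 table of raw counts per mature miRNA from the CAP-miRseq workflow, without normalization. The submitters' processing notes name hg19. The version of the workflow, its annotation release and whether a read that matches both miR-128 hairpins is counted once are not given in the sources used here, and 2 of the 4 counts of miR-128-3p were odd, so they are not plain doublings. Groups and replicate numbers came from the sample labels. The counts held 12100425 to 24858230 reads per library. Replicates differed by more than sampling noise (chi-square per degree of freedom 795 for exposed and 712 for unexposed).

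Counts were filtered with filterByExpr (minimum count 10, minimum total 15, by group), scaled by TMM (factors 0.846 to 1.135) and tested over all miRNAs kept by edgeR 4.0.16 in R 4.3.3 with the quasi-likelihood test, without covariates, and P values were adjusted by the Benjamini-Hochberg method. Shares and ratios were compared by two-sided exact permutation tests over the 4 libraries in SciPy 1.17.1, with exact (Clopper-Pearson) 95% intervals that cover counting error only, and 3 counts were taken as the smallest number told from 0. An offset of 0.5 was added to counts on the log2 scale. The fits were tested on simulated data.

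Other tools tried were DESeq2 1.42.0 and limma-voom (limma 3.58.1). In edgeR, TMM was replaced by DESeq2's size factors, library size only or the upper quartile, and the filter by none beyond a count above 0, by more than 1 CPM in 2 or more libraries, or by a minimum of 10 counts in all 4. Replicate number was added as a block, and each library was left out in turn. Sequences and hairpins came from RefSeq (GRCh38.p14), matched by name for 2367 of the 2656 miRNAs, host genes from GENCODE 29, folding from ViennaRNA 2.7.2 and the hairpin alignment from Biopython 1.88.

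The members, the lists and the tests were chosen with earlier results of these data known. Named were the 3 members, their neighbours in mean CPM, the 3 miRNAs most like miR-128-3p, those of the brain and neuron list with a P under 0.05, the 3 most abundant with the seed of miR-128-3p or a shifted one, and pairs of genes of that list. Any other miRNA was named after its values were seen.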

Additional observations from a re-analysis of the deposited data

How the results depend on the processing

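Leaving out 1 library in turn gave log2 fold changes from -0.017 without unexposed replicate 1 to 0.687 without unexposed replicate 2 for miR-128-3p. They ran from -0.261 to 0.103 for miR-128-1-5p, positive without unexposed replicate 1, and from 0.461 to 0.722 for miR-128-2-5p. The P values of these fits were added after the data were seen. The share of MIR128-1 then differed by -14.1 to -5.57 points and the log2 ratio of 5p to 3p counts by -0.66 to 0.24. As a percentage of all miR-128 counts the share differed by -0.0198 points, because the 3p counts then fill the denominator. With the 5p arm of MIR128-2 only, the log2 ratio differed by 0.25. With library size only miR-128-1-5p was at 0.10, while the median of all miRNAs shifted to 0.14, and with upper quartile scaling that median was -0.12. The calls among all miRNAs were 22 higher and 17 lower with TMM, 30 and 7 with library size only and 15 and 28 with upper quartile scaling. The number of miRNAs with a P under 0.05 was 39, against 94 of 1825 with no filter on low counts (6 with an adjusted P under 0.05), 25 with the replicate block and 59 with the crossed replicate block, a setting added after the data were seen, and between 27 and 43 in the other 7 settings. Same-numbered cultures deviated with a correlation of -0.186 over 863 miRNAs, and the labels do not say that a number marks a shared batch. With the replicate block the log2 fold changes were 0.36, -0.06 and 0.61, and neither block changed a call for a miR-128 product. Groups of 2 limit the design, since an exact permutation test cannot go below 0.333. The 5p arms rest on 93 to 577 counts per library.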
